A study of Mus musculus with 15 samples.

Results

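The Cbl, Fbxw5 and Zfp553-Zfp771 clusters are 3 genomic intervals (mm10) from which adult mouse testis makes PIWI-interacting RNAs (piRNAs). The Cbl cluster (chr9_44142202_44154218) lies almost wholly inside the gene Cbl on chromosome 9, the Fbxw5 cluster (chr2_25501991_25505452) inside Fbxw5 on chromosome 2, and the third (chr7_127234265_127245945) runs from Zfp553 across intergenic sequence into Zfp771 on chromosome 7. Members were all counted loci, each a start, an end and a strand, that overlap 1 of these intervals on either strand. Cbl gave 20309 loci, Fbxw5 700 and Zfp553-Zfp771 335, together 21344 of the 8128951 loci in the series, and the intervals are 3 of 647 piRNA clusters. Cbl and Fbxw5 were chosen by their measured values in the pseudouridine immunoprecipitation against its input, and Zfp553-Zfp771 by its values in chemically treated against mock-treated RNA, so those values are given as a description without a test. The same holds for Cbl and Fbxw5 in the other comparisons of the immunoprecipitation, which share its libraries.

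piRNAs are small RNAs bound by PIWI proteins in germ cells, where they silence transposons and, in the adult testis, are made in large amounts from long non-coding precursors and from the 3′UTRs of some mRNAs. They usually begin with uridine. Pseudouridine (Ψ) is an isomer of uridine made by pseudouridine synthases, so it can only stand where the RNA sequence has U. The carbodiimide CMC forms an adduct with Ψ that stops reverse transcriptase, and modified RNAs can thereby drop out of a library, whereas an antibody to Ψ pulls modified RNA down. Cbl encodes an E3 ubiquitin ligase that acts on receptor tyrosine kinases, Fbxw5 an F-box and WD40 substrate receptor of ubiquitin ligases, and Zfp553 and Zfp771 encode zinc-finger proteins.

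All libraries were made from size-selected total RNA (17 to 40 nt) of testis from male C57Bl/6 mice aged 8 weeks. There were 5 groups of 3 libraries, namely mock-treated RNA (the titles of these libraries call it untreated), CMC-treated RNA, the input of the immunoprecipitation, the RNA bound by the Ψ antibody (Ψ-IP) and the unbound flow-through. The mock and CMC libraries were built with a NEBNext kit and the other 3 groups with a Nextflex kit, so kit and experiment cannot be told apart, and levels are compared by test only within a kit. The labels do not say whether replicates came from different mice, and p-values therefore measure the spread between libraries, which may be technical.

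Library totals ranged from 11575705 to 58399368 counts, and levels are given as CPM, the counts scaled to a library total of 1000000 (mean ± SD, n = 3). The most frequent length was 30 nt in each of the 15 libraries, the length of pachytene piRNAs of adult testis. Counted loci were 14 to 33 nt long in the mock and CMC libraries and 15 to 44 nt in input, Ψ-IP and flow-through. Length shares of these sets therefore rest on unlike ranges. Counts are not divided by interval length, so levels of different clusters are not compared here as transcription. How reads matching several places were counted is not given in the sources used here, and values inside repeats are uncertain for that reason.

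The loci on which the results turn are shown 5′ to 3′ as DNA, with T (U in the RNA) in capitals, because Ψ is made from U and because several of them share a 5′ end and differ in where they stop. They were read from GENCODE vM21 transcripts of the same genome (GRCm38). The Cbl loci lie on the minus strand of chromosome 9 in the 3′UTR of Cbl, and of loci longer than 30 nt the first 30 bases are printed. These are 4 of the 5 largest called losses after CMC among loci averaging at least 100 counts (the one left out has the same 5′ end as the last):
chr9:44147425-44147454: cccTTggcTcTTTTTTgcaTTTgacTgTgc
chr9:44147114-44147144: TTTcTaTcTTTTTacTgagcTgcTTcTgTc
chr9:44147417-44147444: TTTTTTgcaTTTgacTgTgcacgTgTgc
chr9:44148092-44148122: TTaaaaTggTTTTaaaaacTTgTgggTTcT
These are the abundant and the shorter form of the same 5′ end, of which the first was lower and the second higher after CMC:
chr9:44148092-44148121: TaaaaTggTTTTaaaaacTTgTgggTTcTg
chr9:44148094-44148121: TaaaaTggTTTTaaaaacTTgTgggTTc
The next pair also shares a 5′ end, and its shorter form was higher after CMC:
chr9:44146414-44146443: TcTTaacggcTcTgTagaagTagaaaTagg
chr9:44146417-44146443: TcTTaacggcTcTgTagaagTagaaaT
The loci with the highest mean CPM were an ID repeat locus and a locus outside repeats:
chr9:44149032-44149060: TcaaTTggTTgagTgTTTgTcTggcaTTc
chr9:44146208-44146236: TggacTaTTcgaaTggaggTgcTcTcTTc
In Ψ-IP against input, among loci averaging at least 100 counts, the next 2 were the most reduced and the last was among the 5 most increased:
chr9:44146825-44146854: TccTcTgacacTTgaagTgTcaacaTgTag
chr9:44148081-44148110: TaaaaacTTgTgggTTcTgaaaTaTaccTc
chr9:44146400-44146429: TagaagTagaaaTaggagaaTTaTgaaTTT
The Fbxw5 loci are on the plus strand of chromosome 2. The first is at the 5′ end of that cluster most abundant over the 15 libraries, the second at an end nearly absent from the mock and CMC libraries:
chr2:25503160-25503188: cccTaTgaTgTgTTTggcTgcTggcTcac
chr2:25502949-25502979: TcccagTTcaaccaggaTgacTcacTgcTg

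The Cbl cluster held 867333 counts over the 15 libraries, and they came from 1 RNA strand and 1 part of the gene. Of these counts, 99.998% were on the minus strand, which is the sense strand of Cbl (ENSMUSG00000034342.9, chr9:44142976-44234049), and 99.98% lay in its longest annotated 3′UTR (chr9:44142976-44151447, 8472 bases). Only 474 of the 20309 loci were counted in all 15 libraries, and 6985 had a single count in total. The loci shared 4445 5′ ends, of which the most abundant held 8.06% of the counts, the top 5 held 30.7% and the top 100 held 72.2%. Repeats held 14.7% of the counts pooled over the libraries, with an ID element, a SINE, at 10.2% and a fragment of CR1, an old LINE, at 3.87%. The order of these repeats differed between the sets: CR1 loci averaged 125 CPM in mock and 97.1 CPM in CMC libraries, above the ID loci (79.2 and 74.1 CPM), whereas in input, Ψ-IP and flow-through they averaged 52.9, 50.9 and 24.1 CPM, below the ID loci (471, 551 and 289 CPM).

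**Figure D1:**
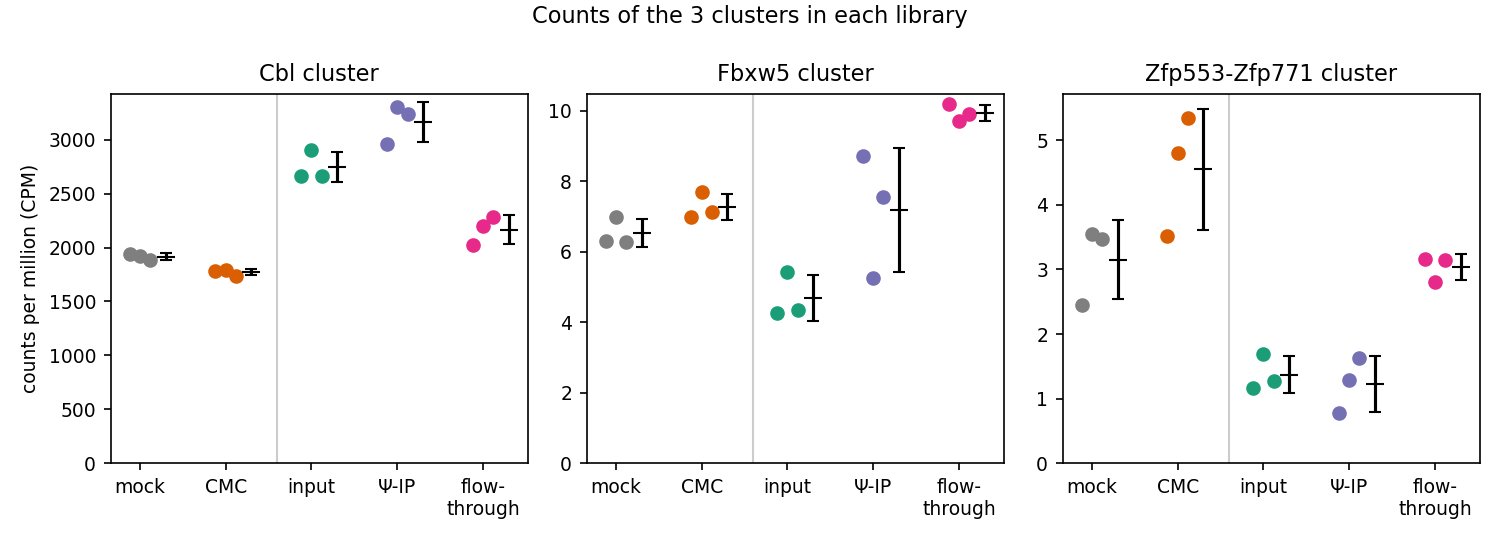
Counts as CPM (y axes, linear from 0) of the Cbl, Fbxw5 and Zfp553-Zfp771 clusters in the 5 groups (x axes). Points are the 3 libraries of each group, the black mark beside them is the mean ± SD, and a grey line divides the 2 kits. Cbl ranged from 1740 to 3301 CPM, Fbxw5 from 4.27 to 10.2 CPM and Zfp553-Zfp771 from 0.771 to 5.34 CPM.

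Cbl piRNAs were counted slightly less often after CMC. The cluster stood at 1940, 1925 and 1881 CPM in the mock libraries and at 1780, 1791 and 1740 CPM in the CMC libraries, so that every CMC library lay below every mock library. The means were 1916 ± 30.6 and 1771 ± 26.8 CPM, a log2 fold change of -0.10 (SE 0.03) with an adjusted p of 0.0298 by edgeR's quasi-likelihood test, which missed the threshold of 0.01. With the replicate number as a block the same log2 fold change of -0.10 had an adjusted p of 0.000526 (edgeR), which passed it. Among the 646 clusters tested, 1.08% were lower and 1.08% were higher without the block, and 3.1% and 4.33% with it. The number called without the block was 14, and it was 0 without mock replicate 2 or CMC replicate 2, 3 without mock replicate 3, 6 without mock replicate 1 and 23 without CMC replicate 1. Same-numbered mock and CMC libraries deviated together, which is why the blocked value is given.

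The loci of Cbl did not lose counts alike. Of 1476 loci tested in this comparison, 18 (1.22%) were lower and 13 (0.881%) higher after CMC, against 0.654% lower and 1.07% higher among all 556583 loci tested. The median log2 fold change was -0.15 over the Cbl loci and 0.00 over all loci. The 18 lower loci came from 14 5′ ends and the 13 higher ones from 11, so many overlap and share an RNA. With the replicate block 28 (1.9%) were lower and 15 (1.02%) higher, against 1.03% lower and 1.24% higher of all loci in that fit. Without 1 library at a time 8 to 22 were lower and 6 to 13 higher. The lower counts of 8 and 9 came without mock replicate 1 or 2 or CMC replicate 2 or 3. These were 0.542 to 1.49% lower and 0.407 to 0.881% higher. The shares of all loci in those fits were 0.227 to 0.959% lower and 0.582 to 1.03% higher.

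Called loci differed in length and U content by direction, which was not tested. The lower loci were 27 to 33 nt long with a median of 30 nt, and their bases were 37.9 to 55.2% U with a median of 46.7%. No locus counted in the mock and CMC libraries was longer than 33 nt. The higher loci were 24 to 29 nt with a median of 27 nt and 20 to 46.4% U with a median of 29.6%. Over all tested Cbl loci the median was 29 nt and 33.3% U. Of the lower loci 2 were at most 28 nt long and of the higher ones 11, compared with 644 of the 1476 tested.

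The largest loss among loci averaging at least 100 counts was at chr9:44147425-44147454, a 30 nt RNA with a run of 6 U. It was counted at 3.82, 3.56 and 2.85 CPM in the mock libraries and at 1.51, 1.99 and 1.65 CPM after CMC. The groups did not overlap, and the log2 fold change was -1.07 (SE 0.18, adjusted p = 0.000101, edgeR). The neighbouring chr9:44147417-44147444, which shares most of that sequence, stood at 7.75, 10 and 8.81 CPM against 3.91, 5.67 and 4.28 CPM (log2 fold change -1.03, SE 0.15, adjusted p = 7.52e-06, edgeR). Its CMC libraries were again all lower than its mock libraries. The 31 nt locus chr9:44147114-44147144, with 51.6% U, had 4.41, 3.42 and 3.74 CPM against 2.29, 1.32 and 1.94 CPM (log2 fold change -1.06, SE 0.19, adjusted p = 0.000158, edgeR), without overlap.

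A group of losses lay at the 5′ ends 44148121 and 44148122, where RNAs that begin with TAAAA or TTAAAA run through the same sequence. The 31 nt locus chr9:44148092-44148122 stood at 13.9, 11.3 and 12.2 CPM in mock and at 9.36, 6.83 and 5.41 CPM in CMC libraries (log2 fold change -0.83, SE 0.15, adjusted p = 0.000406, edgeR). Its 32 nt form, chr9:44148091-44148122, had a log2 fold change of -0.94 (SE 0.19, adjusted p = 0.000909, edgeR). Neither locus overlapped between groups, but the first lost its call without CMC replicate 2 (adjusted p = 0.0110, edgeR) and the second without CMC replicate 3 (adjusted p = 0.0143, edgeR). The far more abundant chr9:44148092-44148121 had 107, 94.8 and 90.2 CPM in mock and 81.0, 65.7 and 54.5 CPM in CMC libraries, again apart (log2 fold change -0.59, SE 0.13, adjusted p = 0.00215, edgeR), a call that was lost without mock replicate 1 or 2 or CMC replicate 2 or 3, and when loci were tested with no count minimum.

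The form ending 2 bases earlier moved the other way. The 28 nt locus chr9:44148094-44148121 rose from 2.19, 1.59 and 1.70 CPM to 3.88, 4.26 and 3.99 CPM (log2 fold change 1.09, SE 0.17, adjusted p = 3.19e-05, edgeR), each CMC library being above each mock library. At the 5′ end 44146443 the 27 nt locus chr9:44146417-44146443 rose from 9.43, 10.6 and 11.0 CPM to 20.2, 19.7 and 22.8 CPM (log2 fold change 0.95, SE 0.13, adjusted p = 1.65e-06, edgeR), also without overlap. The 30 nt locus of that end, chr9:44146414-44146443, had a log2 fold change of -0.12 (adjusted p = 0.703, edgeR).

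Summed over all loci that share a 5′ end, 19 of 706 ends (2.69%) were lower and 6 (0.85%) higher after CMC, against 1.02% lower and 1.17% higher of all 251226 ends tested. The end 44148121 fell from 184 ± 13.3 to 126 ± 23.7 CPM (log2 fold change -0.63, SE 0.12, adjusted p = 0.000847, edgeR). In the CR1 fragment the end 44147624 fell from 78.2 ± 4.01 to 60.6 ± 1.21 CPM (log2 fold change -0.47, SE 0.11, adjusted p = 0.00618, edgeR). By contrast the most abundant end over the 15 libraries, 44146236, to which 30 loci belong, stood at 190 ± 12.2 and 186 ± 19.4 CPM (adjusted p = 0.619, edgeR). The end 44146443 stood at 204 and 202 CPM (adjusted p = 0.685, edgeR). Other abundant ends fell without passing the threshold. These were 44149060 (log2 fold change -0.44, adjusted p = 0.0104, edgeR), 44145464 (-0.39, adjusted p = 0.0306, edgeR) and 44145463 (-0.35, adjusted p = 0.0673, edgeR). The size of the loss thus differed between ends.

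Across Cbl loci the change after CMC varied with U content. Spearman's rank correlation of percent U with the log2 fold change was -0.44 over the 1476 tested loci, -0.65 over 395 loci averaging at least 20 counts and -0.71 over 94 loci averaging at least 100 counts. These are descriptions across loci of the same libraries that overlap in sequence and also share length and depth, so no p is given. Among 233 loci of 29 to 31 nt averaging at least 20 counts the value was -0.72. It was not computed for loci outside Cbl, and nothing here says that the relation belongs to this cluster.

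**Figure D2:**
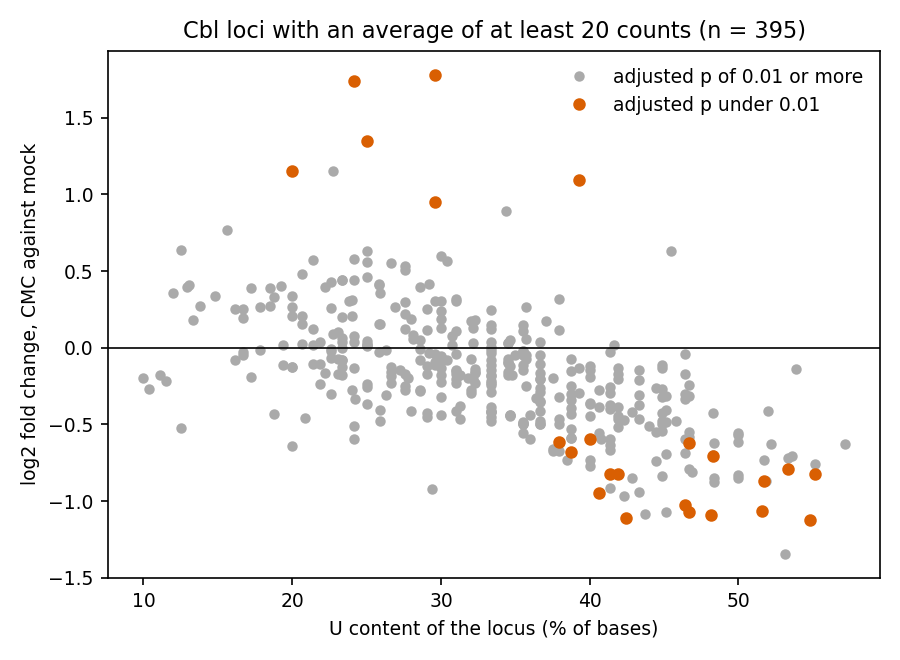
Log2 fold change of CMC against mock (y axis) of single Cbl loci against the percent U of their bases (x axis), for the 395 loci averaging at least 20 counts. Orange points passed the adjusted p threshold of 0.01 and grey points did not. Loci with more U lie lower, and the orange points below 0 lie at 37.9% U or more.

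Divided by U content into 4 classes of nearly equal size, the 96 loci with least U (10 to 25%) had a median log2 fold change after CMC of 0.04, the following 95 had -0.08 and the next 97 had -0.21. The 107 loci with most U (40.0 to 57.1%) had a median of -0.55, and only 2 of them lay above 0. This class held 15 loci called lower and 0 called higher by edgeR. Over all 1476 tested Cbl loci the class with most U (396 loci, 41.4 to 62.1%) held 14 called lower and 3 called higher. In that wider class 67 loci lay above 0. Of all 556583 loci tested, without a minimum average, 0.654% were called lower and 1.07% higher. Classes made in the same way in Ψ-IP against input, a description of the contrast that chose Cbl, differed from these in loci and limits. From least to most U their medians were -0.67, -0.59, 0.23 and 0.79 at an average of at least 20 counts. Over all tested loci they were -0.53, -0.59, 0.21 and 0.66.

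The bases of the counted RNAs were 33.9 ± 0.257% U in mock and 32.5 ± 0.368% in CMC libraries, 1.38 percentage points apart, with 31.05% U in the exonic bases of the interval. The share of counts in loci of 29 to 31 nt was 71.6 ± 0.976% in mock and 68.7 ± 1.69% in CMC libraries, and the share beginning with U was 94.6% and 93.4%. In each of these measures the mock libraries were all higher. An exact two-sided permutation test gave p = 0.1 for each, the smallest p that 3 against 3 libraries allow, and 0.2 after Benjamini-Hochberg adjustment over 6 comparisons. The design cannot reach 0.05 for single values of this kind.

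In the immunoprecipitation, the values that chose the cluster were 2669, 2907 and 2662 CPM in input, 2958, 3301 and 3240 CPM in Ψ-IP and 2025, 2198 and 2281 CPM in flow-through. Ψ-IP lay above input in each library, and input above flow-through. The log2 fold changes were 0.22 against input, 0.54 against flow-through and -0.33 for flow-through against input, comparisons that share libraries. For background, 8.35% of the 647 clusters were higher and 8.66% lower in Ψ-IP against input. The bases of the Cbl RNAs were 35.7 ± 0.547% U in input, 37.7 ± 0.356% in Ψ-IP and 31.05 ± 1.26% in flow-through, and the share beginning with U was 91.9%, 94.1% and 82.5%.

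**Figure D3:**
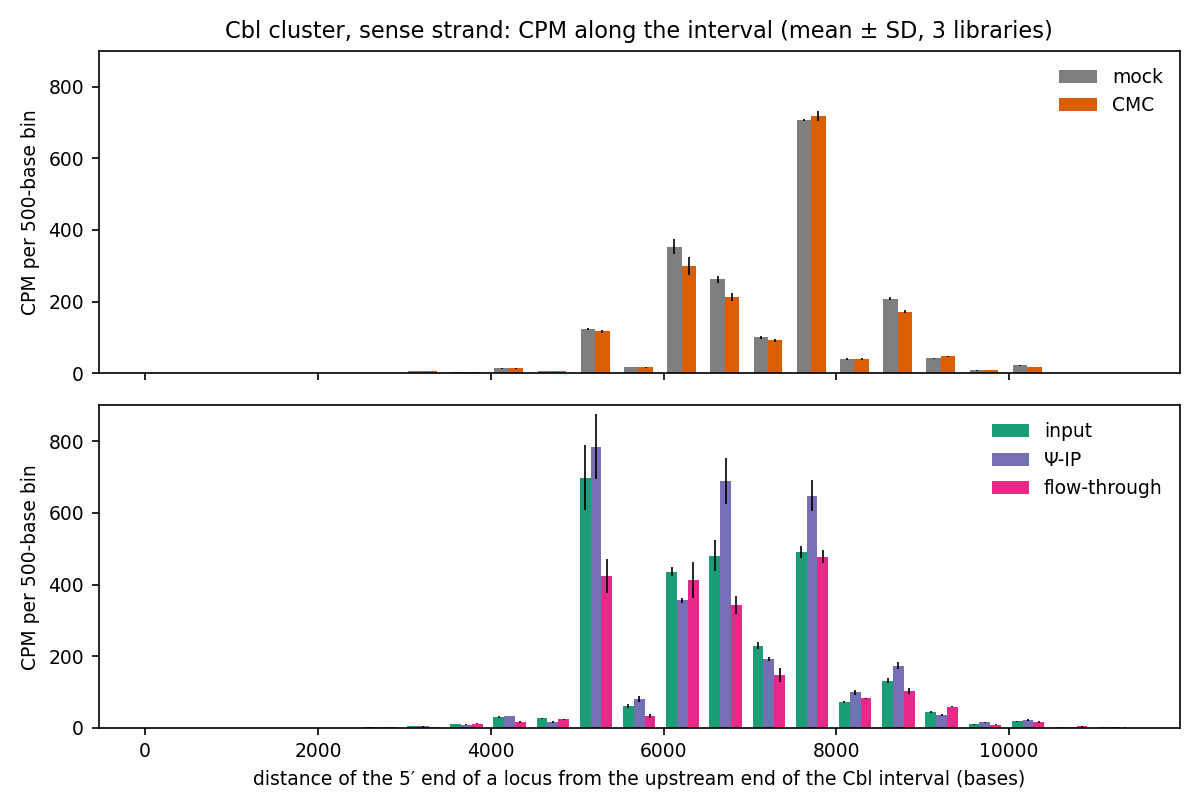
CPM (y axes, linear from 0) of sense Cbl loci in bins of 500 bases, by the distance of their 5′ end from the upstream end of the interval in the direction of transcription (x axis, bases). Bars are means and whiskers SD of 3 libraries, with mock and CMC above and input, Ψ-IP and flow-through below. Mock and CMC libraries are highest in the bin starting at 7500 bases, input and Ψ-IP in the bin starting at 5000 bases.

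Where along the transcript the counts lay differed between the sets made with the 2 kits. In the bin that starts 7500 bases from the upstream end, mock libraries had 707 ± 3.5 CPM and CMC libraries 719 ± 13.9 CPM, the highest bin of both. In the bin starting at 5000 bases, which holds the ID element, mock libraries had 123 CPM, input 699 ± 91.9 CPM, Ψ-IP 784 ± 90.7 CPM and flow-through 424 ± 47.3 CPM. After CMC the bins starting at 6500 and 8500 bases were at 213 ± 11.4 and 171 ± 3.46 CPM, compared with 261 ± 8.94 and 208 ± 5.13 CPM in mock libraries. Loci in the ID element together were at 79.2 CPM in mock, 74.1 CPM in CMC, 471 ± 105 CPM in input, 551 ± 107 CPM in Ψ-IP and 289 ± 52.6 CPM in flow-through libraries. Within it, the locus with the highest mean CPM, chr9:44149032-44149060, had 7.55, 6.22 and 4.69 CPM in mock, 223, 357 and 226 CPM in input, 252, 344 and 419 CPM in Ψ-IP and 60.5, 147 and 149 CPM in flow-through libraries. The mock libraries were all far below the others, and Ψ-IP overlapped with input. Outside repeats chr9:44146208-44146236 had 141, 142 and 125 CPM in mock and 132, 147 and 120 CPM in CMC libraries, which overlapped (log2 fold change -0.10, adjusted p = 0.762, edgeR).

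Within Cbl single 5′ ends differed between Ψ-IP and input in opposite directions. Of 1937 loci that passed the count minimum, 119 (6.14%) lay past the threshold as higher and 163 (8.42%) as lower in Ψ-IP against input, beside 5.45% higher and 10.7% lower of all 686863 loci, counts that only describe the contrast by which Cbl was chosen. They fell to 55 (2.84%) and 86 (4.44%) without input replicate 1, beside 2.53% and 6.17% of all loci. Without input replicate 3 they were 59 (3.05%) and 101 (5.21%), beside 2.52% and 7.1% of all loci. Among loci averaging at least 100 counts, the largest fall was at chr9:44146825-44146854, which had 15.8, 12.1 and 18.5 CPM in input, 0.343, 0.173 and 0.292 CPM in Ψ-IP and 1.54, 1.73 and 3.15 CPM in flow-through libraries (log2 fold change -5.91). Ψ-IP and input were far apart, and both bound and unbound fractions were low. The mock libraries held 0.197, 0.137 and 0.0998 CPM of it, so that it was low in every group but the input. Loci of 29, 31 and 32 nt with the same 5′ end had log2 fold changes of -5.19, -4.47 and -4.06, and the end as a whole had 23.2 ± 5.04 CPM in input, 0.552 ± 0.182 CPM in Ψ-IP and 3.35 ± 1.72 CPM in flow-through.

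Among loci at other 5′ ends averaging at least 100 counts, the next in fall was chr9:44148081-44148110, at 85.5, 69.5 and 97.2 CPM in input and 10.4, 9.59 and 11.7 CPM in Ψ-IP (log2 fold change -3.12). Then followed chr9:44146722-44146751 (-2.21), chr9:44148852-44148881 (-2.14), chr9:44146588-44146617 (-2.08) and chr9:44146414-44146443 (-1.85). Of these, chr9:44148852-44148881 has 16.7% U. The largest rises under the same limit were chr9:44146400-44146431 (1.95), chr9:44146402-44146431 (1.88), chr9:44146400-44146429 (1.86), chr9:44146399-44146429 (1.71) and chr9:44147335-44147365 (1.46). For chr9:44146400-44146429 input had 25.3, 30.5 and 27.8 CPM, Ψ-IP 99.3, 114 and 120 CPM and flow-through 11.6, 13.2 and 9.16 CPM, so that the 3 groups did not overlap.

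**Figure D4:**
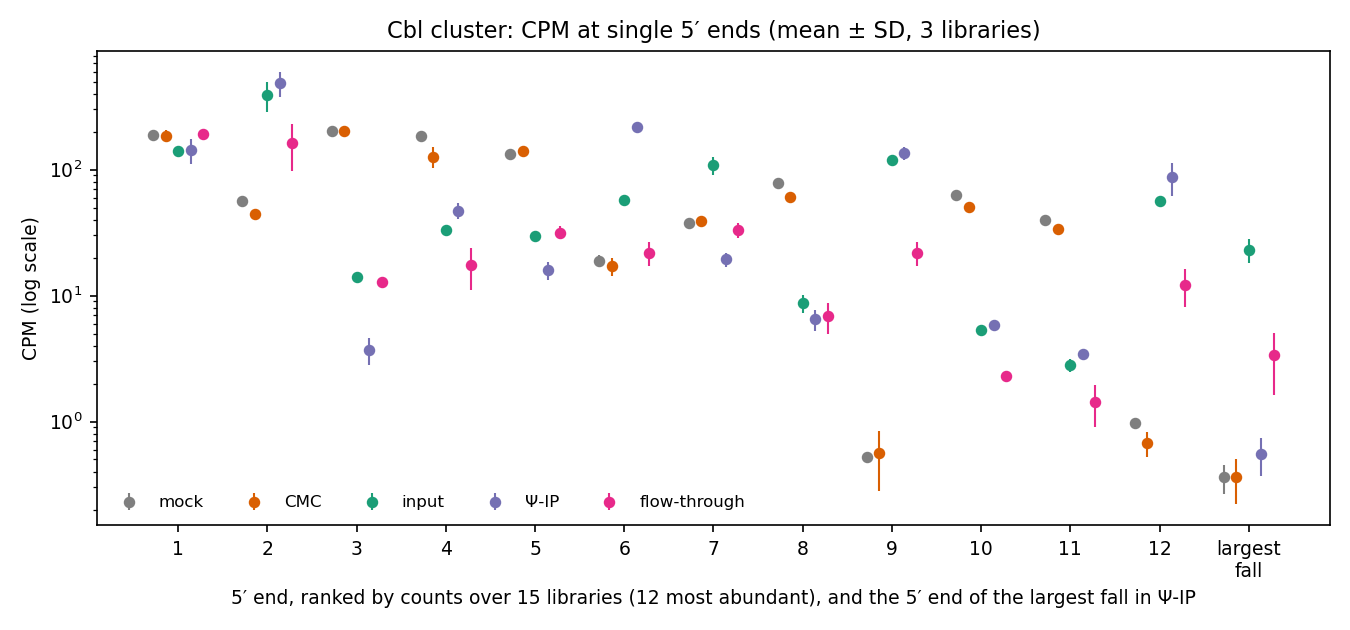
CPM (y axis, log scale) at the 12 most abundant Cbl 5′ ends, ranked by counts over the 15 libraries (x axis), and at the end with the largest fall in Ψ-IP. Points are means and whiskers SD of 3 libraries in each of the 5 groups. The group that is highest changes from end to end, for example 204 CPM in mock and 14.01 CPM in input at rank 3, but 0.523 CPM in mock and 118 CPM in input at rank 9.

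The 5′ end 44146429 had 18.9 CPM in mock, 57.5 CPM in input, 217 ± 15.6 CPM in Ψ-IP and 21.8 CPM in flow-through. The end 44148110 had 37.4 CPM in mock, 108 ± 17.3 CPM in input, 19.4 ± 2.51 CPM in Ψ-IP and 33.2 CPM in flow-through. At 44148843 the levels were 0.523 CPM in mock, 118 ± 12.01 CPM in input, 136 CPM in Ψ-IP and 21.8 CPM in flow-through. The most abundant 5′ end of the mock libraries, 44146443, had 204 CPM there, and 14.01 CPM in input, 3.70 CPM in Ψ-IP and 12.7 CPM in flow-through. Of these ends, 44146443 and 44148843 were each frequent in one set of libraries and rare in the other.

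Fbxw5 gave few piRNAs, nearly all of them from the coding sequence. The interval held 2773 counts over the 15 libraries from 318 5′ ends, 99.96% on the sense strand of Fbxw5 (ENSMUSG00000015095.12, chr2:25500750-25505471). The coding sequence held 94.6% and the 3′UTR 5.23% of the counts, and none of them fell in an annotated repeat. A single locus was counted in all 15 libraries, 361 of the 700 loci had 1 count, and the 5 most abundant 5′ ends held 37.6%.

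The cluster was counted at 6.32, 7 and 6.29 CPM in mock and at 6.99, 7.70 and 7.13 CPM in CMC libraries. The lowest CMC library lay just below the highest mock library, so the groups overlapped. The means were 6.54 ± 0.404 and 7.27 ± 0.375 CPM, a log2 fold change of 0.15 (SE 0.07, adjusted p = 0.239, edgeR). In the same comparison 14 loci were tested, and 0 passed the threshold, with 0 at an unadjusted p under 0.05 (edgeR), and DESeq2 gave the same 0 and 0. Of all 556583 loci 1.73% passed the threshold, and 78102 had an unadjusted p under 0.05 (edgeR).

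Levels in the immunoprecipitation, by which the cluster was chosen, were 4.27, 5.43 and 4.34 CPM in input, 8.73, 5.27 and 7.56 CPM in Ψ-IP and 10.2, 9.71 and 9.93 CPM in flow-through. The Ψ-IP libraries spread widely, and the lowest of them lay below the highest input library, whereas flow-through was above input and Ψ-IP throughout. The log2 fold changes were 0.66 for Ψ-IP against input, -0.47 for Ψ-IP against flow-through and 1.11 for flow-through against input.

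In the mock and CMC libraries most counts of Fbxw5 were shorter than 29 nt. Loci of 25 to 28 nt held 53.0 ± 2.25% of the counts in mock and 51.1% in CMC libraries, and loci of 29 to 31 nt held 30.8 ± 1.34% and 34.0 ± 2.12%. In input, Ψ-IP and flow-through the order of the means was the reverse, though not in every library, with 38.8 ± 14.4%, 38.4 ± 6.37% and 39.1 ± 6.96% of the counts at 25 to 28 nt and 47.6 ± 18.0%, 47.7 ± 6.01% and 45.1 ± 7.14% at 29 to 31 nt. For the share of 29 to 31 nt, mock and CMC libraries differed by 3.24 percentage points (exact two-sided permutation test, p = 0.2, adjusted p = 0.24 over 6 comparisons). Counts beginning with U made up 73.2 ± 3.11% in mock and 72.5% in CMC libraries (exact permutation test, p = 0.9). The bases were 27.4 ± 0.305% U in mock and 26.7 ± 0.407% in CMC libraries, while the exonic bases of the interval are 23.0% U.

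The Fbxw5 5′ end most abundant over the 15 libraries, 25503160, lies in the coding sequence. It held 387 counts, 13.96% of the cluster, over 11 loci, and had a log2 fold change after CMC of -0.25 (adjusted p = 0.674, edgeR). The end 25502949, also in the coding sequence, had 0, 1 and 1 counts in the mock libraries and 1, 1 and 0 in the CMC libraries. It had 22, 6 and 2 counts in input, 18, 10 and 29 in Ψ-IP and 8, 16 and 26 in flow-through, and was thus counted almost only in the Nextflex set. Its means in these groups were 0.449, 1.21 and 1.02 CPM, beside 0.322, 0.583 and 1.46 CPM at the end 25503160.

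Pooled over the 15 libraries, most counts of the Zfp553-Zfp771 cluster lay outside its genes. Of its 1176 counts, 73.2% (861) lay outside any annotated gene and 70.8% were on the minus strand, whereas Zfp553 (ENSMUSG00000045598.10, chr7:127233061-127238179) and Zfp771 (ENSMUSG00000054716.4, chr7:127244274-127254803) are on the plus strand. IAPLTR2b, the long terminal repeat of an IAP retrotransposon, held 65.0% of the counts (764) in 45 loci, nearly all on the minus strand. The 2 5′ ends 127240811 (379 counts) and 127240531 (360 counts) together made up 62.8%. Sense counts in Zfp553 came to 114 in the coding sequence (9.69%) and 97 in the 3′UTR (8.25%), and those in the 5′UTR of Zfp771 to 42 (3.57%). The mock and CMC libraries held 433 and 434 of the 1176 counts, so these shares chiefly describe them. In the immunoprecipitation IAPLTR2b loci had 0.541 of 1.37 CPM in input, 0.667 of 1.23 CPM in Ψ-IP and 1.13 of 3.04 CPM in flow-through, where 41 of 165 counts were sense counts in the 3′UTR of Zfp553.

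**Figure D5:**
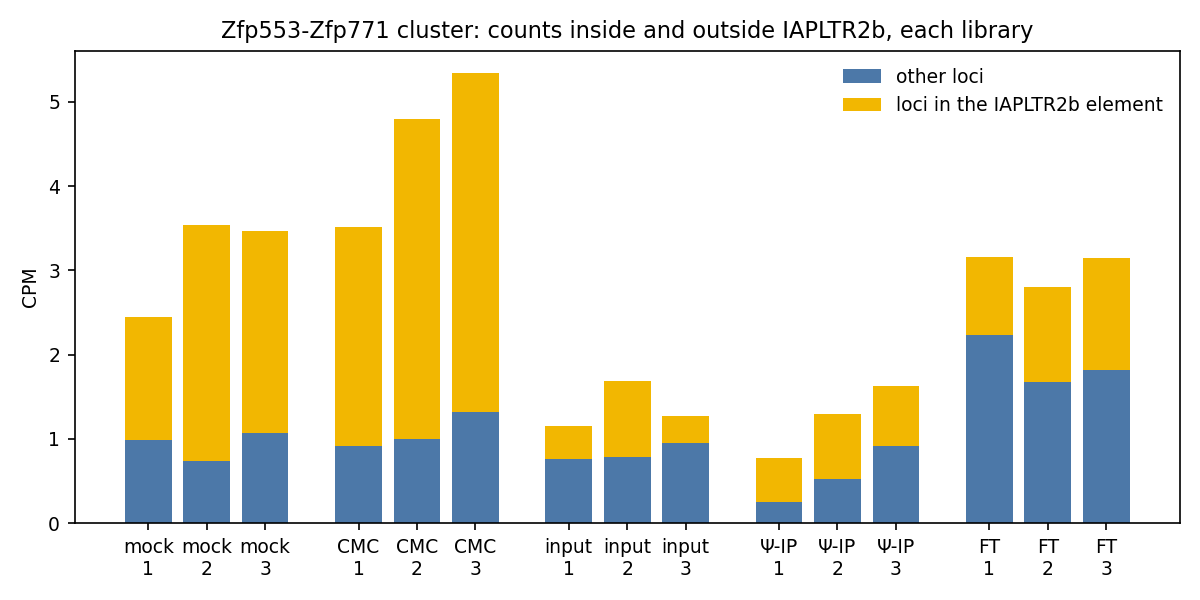
CPM (y axis, linear from 0) of the Zfp553-Zfp771 cluster in each of the 15 libraries (x axis), stacked as loci inside the IAPLTR2b element and other loci. The IAPLTR2b portion averaged 2.22 CPM in mock and 3.48 CPM in CMC libraries, and 0.541, 0.667 and 1.13 CPM in input, Ψ-IP and flow-through (FT).

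Against mock, the contrast that chose it, the cluster stood at 2.44, 3.54 and 3.47 CPM and at 3.52, 4.80 and 5.34 CPM after CMC. The lowest CMC library lay below the highest mock library. The means were 3.15 ± 0.616 and 4.55 ± 0.937 CPM (log2 fold change 0.45), of which IAPLTR2b loci made up 2.22 ± 0.691 and 3.48 ± 0.769 CPM. The rest of the cluster had 0.931 ± 0.174 and 1.08 ± 0.211 CPM, and without the IAPLTR2b loci the log2 fold change was 0.23.

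In the immunoprecipitation, which did not choose it, the cluster was the least counted of all 647 in input and in Ψ-IP, though intervals differ in length. There were 29, 28 and 24 counts in the input libraries, 9, 15 and 39 in Ψ-IP and 68, 52 and 45 in flow-through. In CPM these were 1.16, 1.69 and 1.27 in input, 0.771, 1.30 and 1.63 in Ψ-IP and 3.16, 2.81 and 3.15 in flow-through. Ψ-IP and input overlapped, and flow-through lay above both.

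Flow-through was higher than input, at 3.04 ± 0.202 against 1.37 ± 0.280 CPM (log2 fold change 1.18, SE 0.25, adjusted p = 0.00126, edgeR), where 14.8% of all clusters were higher. Ψ-IP was lower than flow-through, at 1.23 ± 0.433 CPM (log2 fold change -1.22, SE 0.32, adjusted p = 0.00409, edgeR), where 19.9% were lower. Ψ-IP against input gave a log2 fold change of -0.0049 (SE 0.34, adjusted p = 0.996, edgeR), a difference not detectable at this depth. The comparisons share libraries and their values are set side by side only. Without the IAPLTR2b loci the values were 1.22 (adjusted p = 0.00393), -1.58 (adjusted p = 0.00686) and -0.32 (adjusted p = 0.683), in the same order and by edgeR. The call against flow-through was lost without flow-through replicate 1 or 3 or Ψ-IP replicate 1 or 2 (adjusted p = 0.0127 to 0.0195, edgeR), with loci of 24 to 33 nt alone (log2 fold change -1.11, adjusted p = 0.0159, edgeR) and on the strand with more counts alone (log2 fold change -0.67, adjusted p = 0.276, edgeR). That of flow-through against input was lost without input replicate 1 (adjusted p = 0.0117, edgeR) and on that strand (log2 fold change 0.84, adjusted p = 0.0931, edgeR).

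Among the 3 immunoprecipitation groups, flow-through had the highest mean both inside and outside the repeat. IAPLTR2b loci had 0.541 ± 0.318 CPM in input, 0.667 ± 0.137 CPM in Ψ-IP and 1.13 ± 0.199 CPM in flow-through, and the other loci 0.832 ± 0.106, 0.565 ± 0.334 and 1.91 ± 0.291 CPM. Sense counts in the 3′UTR of Zfp553 came to 21 in the input libraries, 5 in Ψ-IP and 41 in flow-through. No single Zfp553-Zfp771 locus was counted often enough to be tested in Ψ-IP against input.

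Clusters with at least 50% of their interval inside 1 protein-coding gene were set beside all clusters. Cbl (93.6% of the interval) and Fbxw5 (100%) belong to this list, and Zfp553-Zfp771 (33.5%) does not. After CMC, 1 of 397 was higher and 1 lower, against 1.08% and 1.08% of all 646, and 90 had an unadjusted p under 0.05, against 165 of all (edgeR). The median log2 fold change was 0.01 in the list and over all clusters. In Ψ-IP against input 23 of 398 were higher and 25 lower (5.78% and 6.28%, against 8.35% and 8.66% of all 647), with a median of -0.03 against -0.02. In Ψ-IP against flow-through 60 were higher and 67 lower (15.1% and 16.8%, against 17.5% and 19.9%), with a median of -0.05 against -0.04. In flow-through against input 51 were higher and 67 lower (12.8% and 16.8%, against 14.8% and 16.8%), with a median of -0.01 in both.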

How the data were processed

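Small RNAs of mouse testis were sequenced in 15 libraries, 3 in each of 5 groups. The deposited files hold counts of reads per locus (chromosome, start, end and strand, mm10), not normalised. According to the methods and the submitters' processing notes, the authors clipped adapters, kept reads of 14 to 44 nt, set tRNA fragments aside, mapped the rest with Bowtie2 to mm10 with at most 3 mismatches and used bedtools for repeats and piRNA clusters. Treatment of reads with several matches is not given in the sources used here. The number of unused per-sample columns was 0.

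Counts were joined by locus, summed over the 647 cluster intervals of the study (both strands) and tested with edgeR 4.0.16 (R 4.3.3; TMM, quasi-likelihood, Benjamini-Hochberg adjustment over all clusters or loci, threshold 0.01), with DESeq2 1.42.0 as an alternative. Loci needed more than 20 counts in total, and clusters in the CMC comparison an average of at least 100 counts per mock library. Single values per library were compared by exact permutation. Scripts were tested on simulated data. Library totals were 35618956 to 58399368 counts in mock, 24154811 to 48909154 in CMC, 16571184 to 25063656 in input, 11575705 to 23935827 in Ψ-IP and 14305933 to 21494965 in flow-through libraries.

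The members and lists were chosen with earlier results of these data known. Named loci were the most abundant of each cluster, the largest called changes among loci averaging at least 100 counts in a tested comparison, the largest falls and rises of Cbl in Ψ-IP and the most abundant 5′ ends. Same-numbered mock and CMC libraries deviated together (r = 0.175, 0.193 and 0.353 over 50099 loci averaging at least 100 counts, but 0.0529, 0.0687 and 0.168 over 279548 loci averaging at least 10), and were treated as paired where a blocked value is given. Ψ-IP and input libraries did so in 2 of 3 pairs (r = 0.312, 0.340 and -0.0450 over 26196 loci) and were not treated as paired.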

Additional observations from a re-analysis of the deposited data

How the results depend on the processing

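Counting depth limits Zfp553-Zfp771, with 9 to 39 counts per Ψ-IP library, and Fbxw5, and multiply matching reads limit values inside repeats. The log2 fold change of Cbl after CMC (-0.10) passed the threshold with DESeq2's Wald test (-0.11, adjusted p = 0.00141), with loci of 24 to 33 nt (-0.10, adjusted p = 0.00392, edgeR), and, an alternative chosen after seeing the data, without the most abundant 5′ end of each cluster (-0.13, adjusted p = 0.00401, edgeR); without 1 library at a time it was -0.13 to -0.09 and was not called. With the replicate block, which pairs same-numbered libraries, it was -0.10 (adjusted p = 0.000526, edgeR), and 28 Cbl loci were lower. The number of Cbl loci higher after CMC was 13 and became 7 with a minimum of 100 counts and also 7 with no minimum (12 lower), 6 as 5′ ends, and 5 with DESeq2, and 6 to 13 without 1 library at a time, while 8 to 22 were lower. The Ψ-IP against input value of Zfp553-Zfp771 (-0.0049) changed sign with DESeq2 size factors (0.013), loci of 24 to 33 nt (0.0086), the strand with more counts alone (0.14) and, chosen after seeing the data, without ID loci (0.0016), and was -0.37 to 0.20 without 1 library at a time. Its value against flow-through lost the call with loci of 24 to 33 nt (-1.11) and with the strand with more counts (-0.67), and was -1.56 to -1.01 without 1 library. Flow-through against input lost it on that strand (0.84) and was 1.07 to 1.34 without 1 library. The causes were not tested. For Ψ-IP against input, 2 of 3 same-numbered pairs deviated together (r = 0.312 and 0.340) and the other did not (-0.0450), so the numbers were not treated as pairs; flow-through was not checked. The replicate block changed no call of Zfp553-Zfp771 in the comparisons of the immunoprecipitation. A minimum average of 100 counts left no Zfp553-Zfp771 value in those comparisons. After CMC, the contrast that chose the cluster, its log2 fold change was 0.54 with the block and 0.45 without, given without a test. Of all loci after CMC, 9619 were called, against 6383 with no minimum, 6346 with DESeq2, 5490 as 5′ ends and 4506 to 11048 without 1 library at a time. DESeq2 gave no adjusted p for Fbxw5 after CMC.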
